A study of Mus musculus with 19 samples.

Results

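The IL-33 receptor and the IL-1 axis were followed as 7 genes out of the 23284 that were measured. They are Il1rl1, which encodes the IL-33 receptor ST2, and Il33, Il1r1, Il1rap, Il1rn, Il1a and Il1b. All 7 had a row in both deposited tables. They were chosen by name, and Il1rl1 was taken because its deposited values fell from fibroblasts to grafts more than those of almost any other gene. For that reason the level of Il1rl1 in every group, and the difference between grafts and fibroblasts for all 7 genes, are given below as descriptions without a test. The other 6 genes were tested in the comparisons of prostate with fibroblasts and of prostate with grafts.

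RNA-seq measured poly(A) transcripts in 19 samples on the C57BL/6 background, apart from the hosts and the mesenchyme of the grafts. By the methods, these were NCr nude mice and Sprague-Dawley rat embryos. The 6 MEF samples were embryonic fibroblasts of mice, taken at E13.5 and cultured in DMEM with 10% FBS, and their labels give them a heterozygous LacZ allele. According to the methods, these cells came from pooled littermates and had been sorted against blood, endothelial, macrophage and epithelial surface markers. The 6 prostate samples were whole tissue from mice at 6 weeks of age, which the paper describes as wild type. The 7 grafts were induced epithelial (iEpt) cells, made from fibroblasts with retroviruses for human OCT4, SOX2, KLF4 and c-MYC, recombined with rat urogenital mesenchyme and grown for 6 weeks in testosterone-supplemented male nude mice under the kidney capsule. The labels do not state which grafts also carried lentiviral transcription factors. The study lists the 5 grafts of the first table as carrying them and does not list grafts FS022 and FS023, which were normalized apart in a second table, enter no test and are given by value. The host supplies mouse vessels, kidney and leukocytes, although nude mice lack thymus-derived T cells, and transcripts of the rat mesenchyme can also align to mouse genes.

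IL-33 and IL-1 are cytokines of 1 family that signal through paired receptors. IL-33 is stored in the nuclei of epithelial, endothelial and stromal cells and acts as an alarm signal when these cells are damaged. It binds ST2, which is known from mast cells, innate lymphoid cells and regulatory T cells and also exists as a secreted decoy that serum-stimulated fibroblasts release. IL-1α and IL-1β bind IL1R1, the product of Il1r1, and both ST2 and IL1R1 need the accessory protein encoded by Il1rap. The product of Il1rn, the IL-1 receptor antagonist, occupies IL1R1 without signalling. IL-1β is made mainly by activated macrophages and neutrophils and is cut into its active form by caspase-1, whereas IL-1α is typical of keratinocytes and other epithelia.

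The values are on a log2 scale, and 0 reads correspond to a value of -0.31. The reads on genes, estimated from the values, numbered 20418159 to 26152339 in the MEFs, 16767287 to 22512388 in prostate, 17371422 to 23446520 in the 5 grafts, and 6629663 and 9662056 in FS022 and FS023. The detection limit was set at 3 reads, which lay at 1.68 to 2.34 on the log2 scale for the 17 samples of the first table, at 3.12 for FS022 and at 2.70 for FS023, and anything at or under it was read as not detected. These floors cover counting error only. The MEFs fell into 3 close pairs, FS017 with FS018, FS015 with FS020 and FS016 with FS019, with SDs of the log2 difference of 0.0702 to 0.107 over genes above a value of 10, against 0.383 to 0.441 for the other 12 pairs. The labels do not say whether separate cultures stand behind the replicates, so p-values measure the spread between these samples. Some MEFs stood apart by their markers. FS015 and FS020 had 12113 and 10951 summed normalized reads of 10 leukocyte and macrophage markers, against 214 to 297 in the other 4 MEFs. FS015 to FS018 had 947 to 3260 summed normalized reads of 7 prostate secretory genes, against 5.80 and 9.81 in FS019 and FS020 and 1.13e+06 to 2.36e+06 in the prostate samples.

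**Figure D1:**
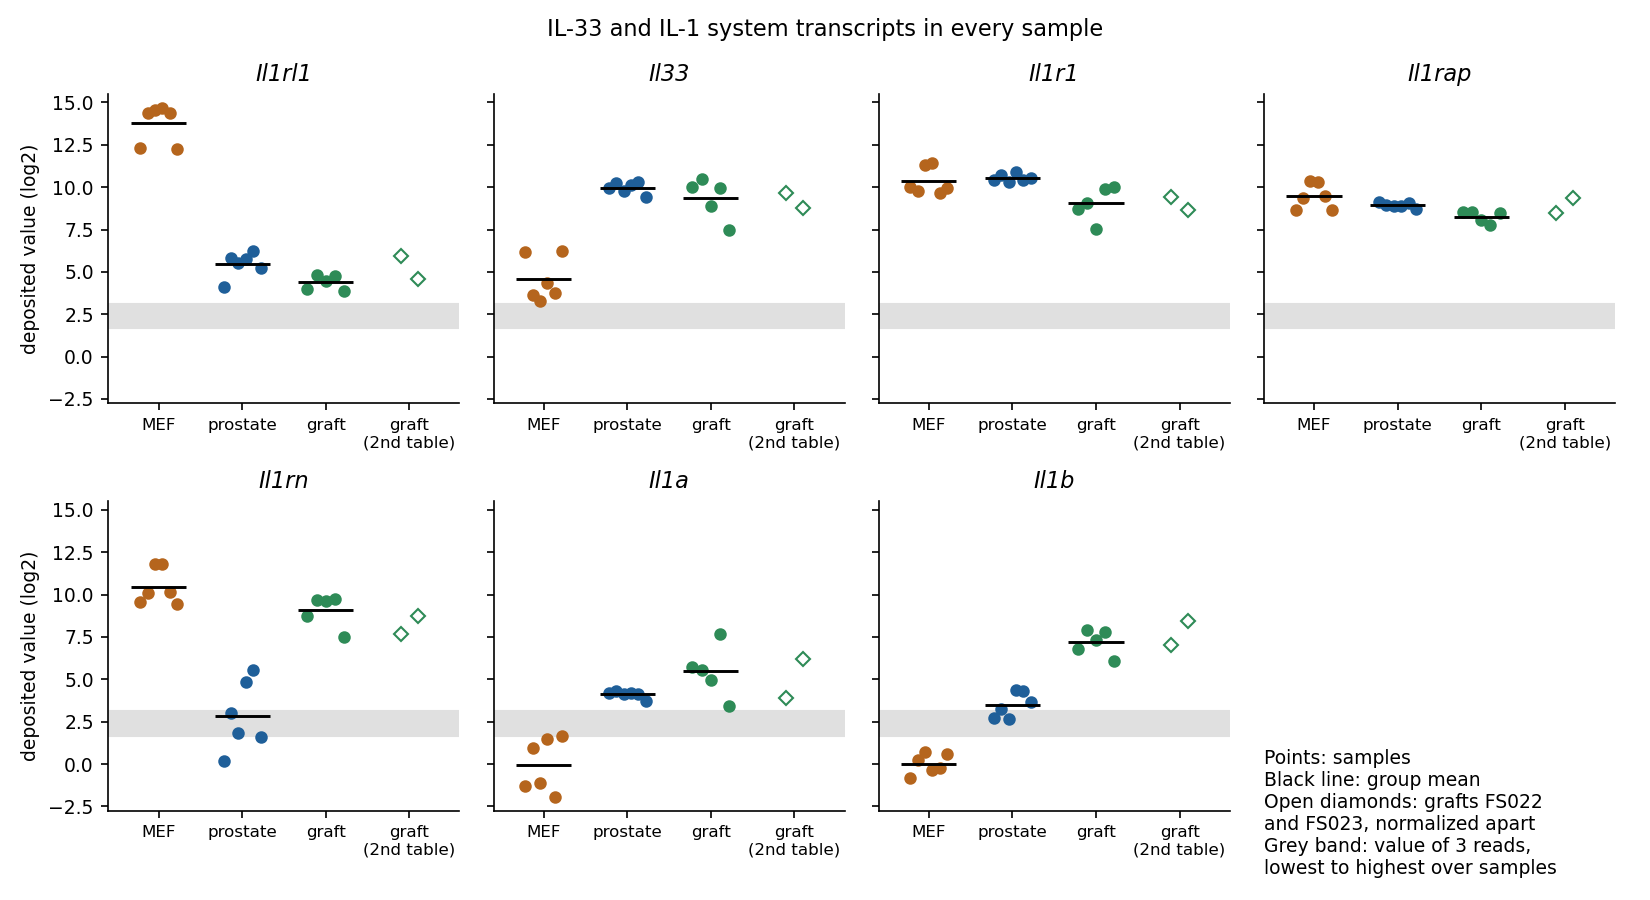
Deposited log2 value of each of the 7 genes in every sample, in MEFs (n = 6), prostate (n = 6), the 5 grafts of the first table and the 2 grafts of the second. Points are samples, black lines are group means and the grey band spans the value of 3 reads over all samples. Il1rl1 lies between 12.23 and 14.69 in the MEFs and at 6.21 or less in every other sample, whereas Il1a and Il1b lie under the band in every MEF.

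Il1rl1, the receptor gene, was highly expressed in fibroblasts and low in both tissues, where it was still above 3 reads in every sample. It lies on the plus strand of chromosome 1 from 40486415 to 40522260 in mm9. In the MEFs its log2 value was 12.30, 14.35, 14.56, 14.69, 14.39 and 12.23 in FS015 to FS020, which corresponds to 5571 to 28593 reads. In prostate the value was 4.11, 5.80, 5.54, 5.76, 6.21 and 5.23 in FS009 to FS014. In the 5 grafts it was 3.99, 4.84, 4.46, 4.74 and 3.85, and FS022 and FS023 had 5.94 and 4.59. All MEFs were far above all tissue samples, and the prostate and graft ranges overlapped. The 2 MEFs with the lowest Il1rl1 were FS015 and FS020, those with the leukocyte and macrophage markers.

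The mean of Il1rl1 was 13.76 ± 1.16 (SD, n = 6) in MEFs and 5.44 ± 0.73 (SD, n = 6) in prostate, while the grafts of the first table had 4.38 ± 0.44 (SD, n = 5). Grafts were therefore 9.38 lower than MEFs on the log2 scale, the largest fall among the 16121 genes compared, and the next was that of Lox, at 7.30. Prostate was 8.31 lower than MEFs, which was rank 16 among the falls of 14560 genes. Without FS015 and FS020, the prostate difference from MEFs was -9.06. Between the tissues, prostate was 1.07 above the grafts in mean, a difference that became 2.40 after quantile normalization between samples. These 3 differences share their samples, and none was tested.

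Because the tissues are mixtures, fewer fibroblasts and less RNA per fibroblast cannot be told apart. Set against 9 fibroblast markers in the same sample (collagens, Pdgfra, Pdgfrb, Dcn and others), Il1rl1 had 7.33 to 51.4 normalized reads per 1000 marker reads in MEFs. The same quantity was 0.649 to 1.26 in prostate and 0.231 to 1.28 in the grafts of the first table, and it was 0.811 and 0.946 in FS022 and FS023. The ranges of MEFs and tissues did not overlap on this measure either. The markers did not move together, however, and the collagens weigh most in the MEF sum. Col1a1 had mean log2 values of 17.93 in MEFs, 12.14 in prostate and 12.89 in grafts. Dcn went the other way, with 9.65, 13.53 and 11.33, and Lum had 9.62, 9.65 and 8.34. The measure is therefore not a plain count of fibroblasts. Mast cells, a known source of ST2, had little trace in the MEFs, since 9 mast cell markers summed to 14.1 to 38.8 normalized reads and Cpa3, Mcpt4, Fcer1a and Hdc were at or under 3 reads in all 6. The same list summed to 201 to 387 in prostate and 863 to 10714 in the 5 grafts, but 2 of its 9 genes were above 3 reads in all grafts. Kit and Hdc carried the graft sum, with mean log2 values of 9.72 and 10.37 against 6.21 and 5.96 in prostate, whereas the mast cell proteases Cpa3 and Mcpt4 had 1.84 and 1.05 in grafts against 5.31 and 4.72 in prostate. The table holds 1 value per gene, while the annotation gives Il1rl1 5 protein-coding transcripts, so the secreted and membrane-bound forms of ST2 were not separated.

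Il33, the ligand of ST2, showed the opposite order and was high in both tissues. It lies on the plus strand of chromosome 19 from 29999604 to 30035194. Its log2 value in FS015 to FS020 was 6.19, 3.61, 3.31, 4.33, 3.78 and 6.24. In prostate it was 9.93, 10.26, 9.77, 10.12, 10.30 and 9.43, and in the 5 grafts 10.01, 10.50, 8.90, 9.94 and 7.46. FS022 and FS023 had 9.66 and 8.79. Every tissue sample was above every MEF, and the highest MEFs were again FS015 and FS020.

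Il33 was called higher in prostate than in MEFs, by 5.39 ± 0.50 (SE; limma adjusted p = 3.33e-07), where called means an adjusted p under 0.05 and a log2 difference of at least 1. Among all genes tested in that comparison, 48.3% were called, with 27.8% higher and 20.5% lower in prostate, and 66.7% had groups that did not overlap. Of the 6 members tested there, 4 passed the filter on low values and 2 of these were called, Il33 as higher and Il1rn as lower. The FS015 to FS018 secretory signal was 0.0505% to 0.174% of the prostate level. At those shares, prostate Il33 would amount to 0.516 to 1.78 normalized reads, while these MEFs had 8.36 to 71.3. An equal share for all genes was assumed here, and the source of the Il33 reads in MEFs was not tested. Epithelial markers moved with Il33, since 7 basal and luminal genes summed to 63.8 to 419 normalized reads in MEFs, 40164 to 51188 in prostate and 21417 to 55383 in the 5 grafts. Per 1000 of these marker reads, Il33 had 48.2 to 241 normalized reads in MEFs, 15.8 to 30.4 in prostate and 8.14 to 26.6 in the 5 grafts. FS022 and FS023 had 19.8 and 47.5. MEFs were the highest on this measure, but there it divides by a marker sum of at most 419. Endothelial markers moved with Il33 as well, and 6 of them summed to 229 to 652 in MEFs, 1378 to 1939 in prostate and 2567 to 4483 in the 5 grafts. Of these, Kdr did not follow, with mean log2 values of 8.29, 7.48 and 8.60. Among the MEFs, the epithelial and the endothelial sums were both highest in FS015 and FS020. The parts of epithelial and endothelial content in the difference were not tested. Grafts were 4.78 above MEFs in mean, as a description, in a comparison where 41.9% of all genes were called, 29.9% as higher and 12.0% as lower in grafts, and the groups of 47.3% did not overlap.

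Between prostate and the grafts, Il33 differed by 0.61 with a 95% interval from -0.39 to 1.61 (limma adjusted p = 0.276), and the ranges overlapped. Prostate was at 9.97 ± 0.33 (SD, n = 6) and the grafts at 9.36 ± 1.21 (SD, n = 5), a wider spread to which FS008, the graft with the lowest Il33, contributed most. Within each sample and per kb of exon, Il33 transcripts were at a log2 ratio of -10.24 to -4.76 to those of Il1rl1 in MEFs, 5.39 to 7.21 in prostate and 5.03 to 7.43 in the 5 grafts. The ratio was 5.02 and 5.55 in FS022 and FS023. Il1rl1 transcripts exceeded those of Il33 in every MEF and the reverse held in every tissue sample, which partly restates the fall of Il1rl1 by which that gene was chosen.

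**Figure D2:**
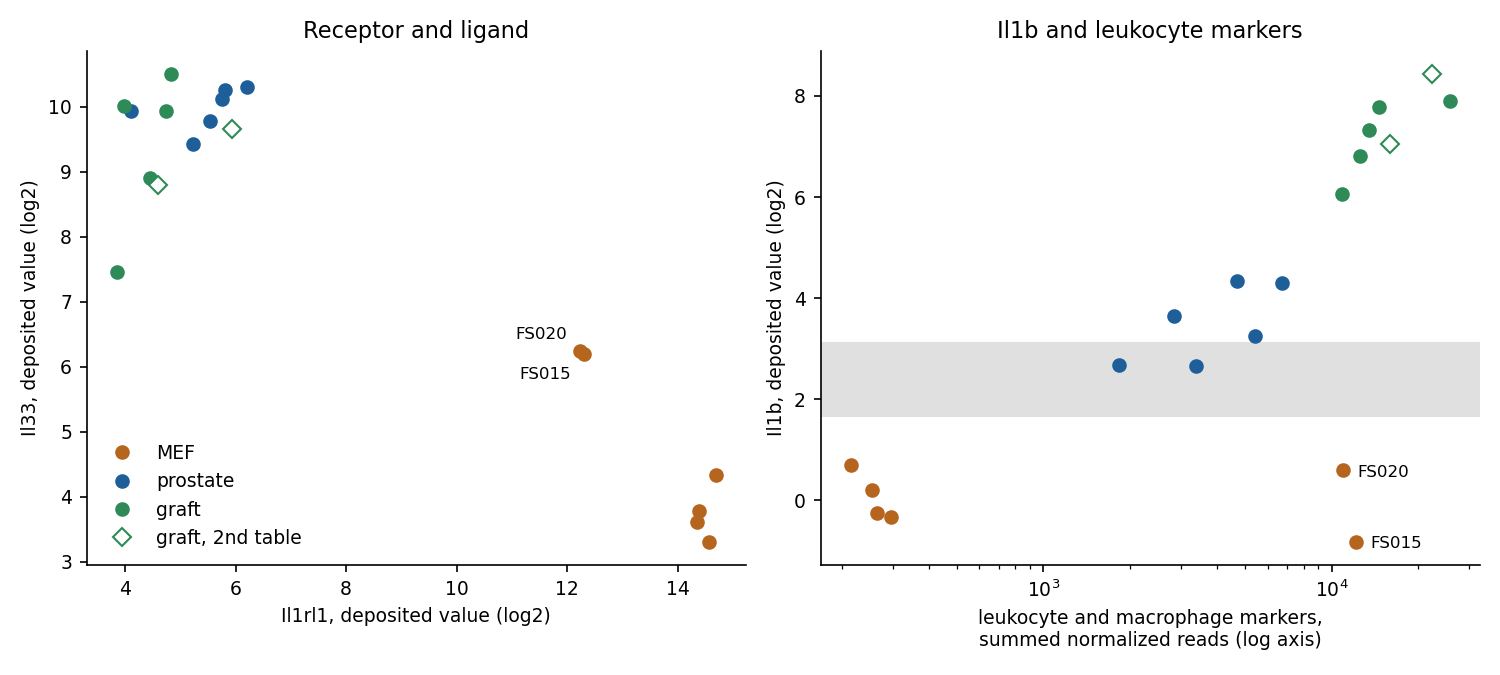
Left, deposited log2 value of Il1rl1 against that of Il33, and right, summed normalized reads of 10 leukocyte and macrophage markers (log axis) against the deposited log2 value of Il1b, with 1 point per sample and open diamonds for the grafts of the second table. MEFs have the highest Il1rl1 and the lowest Il33, and FS015 and FS020 combine 12113 and 10951 marker reads with Il1b values under the grey band of 3 reads.

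The signalling receptor genes Il1r1 and Il1rap varied much less than the ligands. Il1r1, which encodes the receptor for IL-1α and IL-1β, lies on the plus strand of chromosome 1 from 40281925 to 40373043. Its log2 value was 10.02, 9.74, 11.32, 11.43, 9.65 and 9.96 in the MEFs FS015 to FS020. In prostate the lowest value was 10.32, the median 10.48 and the highest 10.89. The 5 grafts had 8.69, 9.06, 7.56, 9.91 and 10.00, all of them under the lowest prostate sample, and FS022 and FS023 had 9.40 and 8.64. The MEF range enclosed the prostate range and overlapped that of the grafts.

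Il1r1 was called higher in prostate than in grafts, by 1.50 ± 0.37 (SE; limma adjusted p = 0.00523). In that comparison 33.3% of all genes tested were called, 10.3% as higher and 23.0% as lower in prostate, and the groups of 37.2% did not overlap. Of the members, 3 of the 6 tested were called, 1 higher and 2 lower in prostate. Kidney transcripts differed between these tissues, and 9 kidney markers summed to 1277 to 169287 normalized reads in the 5 grafts against 4.78 to 107 in prostate. The highest kidney sum was in FS005, the graft with the least Il1r1, but FS008 had a sum of 159393 and the most Il1r1 of the 5 grafts. The lowest sum was in FS003, with an Il1r1 value of 9.06. The part of kidney content in the prostate and graft differences was not tested. Against MEFs the prostate difference of Il1r1 was 0.19, with an interval of -0.47 to 0.85 (limma adjusted p = 0.572). The close pair FS017 and FS018 had the most Il1r1 among the MEFs. Without FS015 to FS018 it was 0.74 (limma adjusted p = 0.00213, under the minimum size for a call), and without FS015 and FS020 it was 0.01. Grafts were 1.31 lower than MEFs in mean, with overlapping ranges.

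Il1rap, whose product is the accessory protein that ST2 and IL1R1 need, lies on the plus strand of chromosome 16 from 26581790 to 26730203. A processed transcript is annotated on its other strand, and reads of both genes cannot be told apart where no strand was recorded. Its log2 value was 8.67, 9.34, 10.35, 10.33, 9.46 and 8.65 in the MEFs. It was 8.70 to 9.13 in prostate with a median of 8.92, and 8.51, 8.53, 8.05, 7.74 and 8.48 in the 5 grafts. FS022 and FS023 had 8.46 and 9.36. All 5 grafts were under all prostate samples and all MEFs.

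Prostate was 0.67 ± 0.16 (SE) above the grafts (limma adjusted p = 0.00388), which was smaller than the difference of 1 that a call required. After quantile normalization the difference was 1.01 (limma adjusted p = 0.000693) and passed. Against MEFs it was -0.53, with an interval of -1.15 to 0.08 (limma adjusted p = 0.0973), and without FS015 and FS020 it was -0.94 (limma adjusted p = 0.00108), still under the minimum size. As a description, grafts were 1.20 lower than MEFs.

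Il1rn, the antagonist gene, was high in fibroblasts and grafts and barely detected in prostate. It lies on the plus strand of chromosome 2 from 24192373 to 24207014. The MEFs FS015 to FS020 had log2 values of 9.55, 10.10, 11.79, 11.83, 10.12 and 9.42. The 5 grafts had 8.76, 9.66, 9.63, 9.75 and 7.50, and FS022 and FS023 had 7.65 and 8.73. The prostate samples FS009 to FS014 had 0.18, 3.02, 1.85, 4.87, 5.53 and 1.61, and only FS010, FS012 and FS013 were above the value of 3 reads. No prostate sample reached the lowest MEF or graft, while MEFs and grafts overlapped.

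Il1rn was called lower in prostate than in MEFs, with a difference of -7.62 ± 0.85 (SE; limma adjusted p = 2.07e-06), and lower than in grafts, with a difference of -6.22 ± 0.90 (SE; limma adjusted p = 0.000166). With 3 of 6 prostate samples at or under the floor, these sizes are imprecise. Grafts were 1.41 lower than MEFs in mean. A list of 9 squamous epithelial genes (Ivl, Sprr1a, Krt10 and others), a cell type that also expresses this antagonist, summed to 45.4 to 95.8 normalized reads in MEFs, 190 to 424 in prostate and 1747 to 36243 in the 5 grafts. FS008 had both the lowest squamous sum and the lowest Il1rn among the grafts, but FS002 had a sum of 30143 with an Il1rn value of 8.76 and FS005 a sum of 5969 with 9.63. In the MEFs 3 of the squamous genes, Sprr1b, Krt1 and Krt6a, were at or under 3 reads in all 6, while 2 of the 9 were above it in all 6. The sums of 10 leukocyte and macrophage markers were 1832 to 6742 in prostate and 10876 to 25702 in the 5 grafts. The prostate samples with the highest such sums were FS010, FS012 and FS013, those with detected Il1rn. Among the MEFs, FS015 and FS020 had the highest such sums and the lowest Il1rn. The parts of squamous cells and of leukocytes in the Il1rn values were not tested.

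The IL-1 ligand genes Il1a and Il1b were not detected in any MEF and were low in prostate. Grafts had more Il1b than prostate, while for Il1a the difference was not called. They lie 54597 bases apart on the minus strand of chromosome 2, Il1a from 129125346 to 129135708 and Il1b from 129190306 to 129196875, and each has a non-coding transcript annotated on the other strand. The log2 value of Il1a was at most 1.63 in the 6 MEFs. In prostate it was 4.19, 4.30, 4.14, 4.17, 4.13 and 3.75, about 11 to 21.8 reads. In the 5 grafts it was 5.73, 5.55, 4.98, 7.66 and 3.45, and FS022 and FS023 had 3.91 and 6.18. Prostate samples lay close together, while the grafts ranged from below to far above them.

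Relative to a floor of 3 reads in the MEF library where those count most, mean normalized reads of Il1a were at least 5.70-fold higher in prostate and at least 24.2-fold higher in grafts. Il1a did not pass the filter on low values in the comparison of prostate with MEFs, where an exact two-sided permutation test gave p = 0.0022 (unadjusted), the smallest that 6 against 6 samples allow. This counts the 6 MEFs as separate samples. With the MEFs averaged in their 3 close pairs the permutation p was 0.024, the smallest that 6 against 3 values allow. Between prostate and grafts the difference was -1.36 with an interval of -2.65 to -0.07 (limma adjusted p = 0.0689) and was not called. This depended on FS008, and without it the difference was -1.87 (limma adjusted p = 0.00574) and was called. FS007, the graft with the most Il1a, also had the highest squamous sum.

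Il1b had log2 values of -0.81 to 0.71 in the MEFs. In prostate they were 2.69, 3.24, 2.65, 4.34, 4.30 and 3.65, about 4.13 to 20.5 reads. The 5 grafts had 6.81, 7.91, 7.33, 7.77 and 6.07, about 73.5 to 369 reads, and FS022 and FS023 had 7.05 and 8.43. All grafts were above all prostate samples, and all prostate samples were above all MEFs.

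Il1b was called lower in prostate than in grafts, with a difference of -3.70 ± 0.45 (SE; limma adjusted p = 4.75e-05). Against the floor of 3 reads in MEFs, it was at least 3.93-fold higher in prostate and at least 57-fold higher in grafts. The exact two-sided permutation test of prostate against MEFs gave p = 0.0022 (unadjusted), again the smallest possible. With the MEFs averaged in their 3 close pairs, the permutation p was 0.024, which is likewise the smallest possible.

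Leukocyte markers moved with Il1b among the tissues but not among the MEFs. The 10 leukocyte and macrophage markers summed to 1832 to 6742 normalized reads in prostate and 10876 to 25702 in the 5 grafts. The sums of 7 neutrophil markers were 43.0 to 102 and 137 to 1740, but these genes did not move together. S100a8 and S100a9 had mean log2 values of 6.41 and 7.21 in grafts against 1.41 and 0.35 in prostate. Csf3r and Retnlg also had higher means in grafts. Mmp8 went the other way, with 3.97 in grafts and 5.51 in prostate. Ngp was at or under 3 reads in all samples of both groups, and Camp had means of 0.55 in grafts and 0.94 in prostate. Per 1000 leukocyte and macrophage marker reads, Il1b had 1.41 to 4.0 normalized reads in prostate and 6.03 to 14.9 in the grafts of the first table, and these ranges did not overlap. FS022 and FS023 had 8.23 and 15.4. In FS015 and FS020, the marker sum was within the graft range, yet Il1b was at or under 3 reads in both. The part of leukocyte content in the prostate and graft values was not tested.

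**Figure D3:**
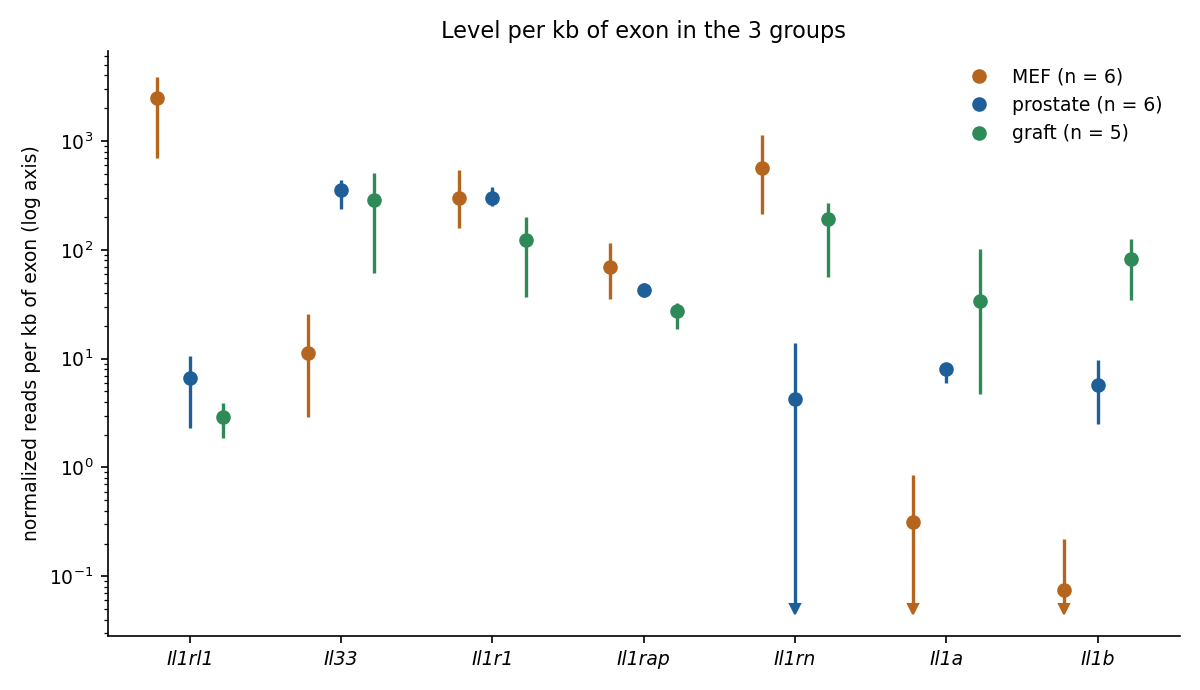
Mean normalized reads per kb of annotated exon (log axis) for the 7 genes in MEFs (n = 6), prostate (n = 6) and the grafts of the first table (n = 5). Vertical lines run from the lowest to the highest sample, and triangles mark a lowest sample under the axis. In MEFs the mean of Il1rl1 is 2487 and that of Il33 is 11.3, while in prostate they are 6.67 and 356.

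Levels of different genes can be compared only per length, as mean normalized reads per kb of exon. In MEFs the order was Il1rl1 with 2487, Il1rn with 561, Il1r1 with 297, Il1rap with 69.6 and Il33 with 11.3, each above the next in 6 of 6 samples, followed by Il1a and Il1b near 0. In prostate it was Il33 with 356, Il1r1 with 298, Il1rap with 43.0, Il1a with 8.03, Il1rl1 with 6.67, Il1b with 5.73 and Il1rn with 4.30. The steps from Il1r1 to Il1rap and from Il1rap to Il1a held in 6 of 6 prostate samples, while Il1rl1 exceeded Il1b in 3 of 6, so the last 4 genes had no firm order. In the grafts it was Il33 with 286, Il1rn with 191, Il1r1 with 123, Il1b with 83.0, Il1a with 34.1, Il1rap with 27.5 and Il1rl1 with 2.89. Il1rap was above Il1rl1 in 5 of 5 grafts, but Il1r1 exceeded Il1b in 3 of 5, and Il1a exceeded Il1rap in 1 of 5 despite its higher mean. Il1rl1 moved from the first place in MEFs to the last in grafts, and Il33 from the fifth to the first.

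The IL-1 receptor genes lie side by side on chromosome 1, and their order there did not match their levels in fibroblasts. The cluster holds 6 genes within 467 kb, in the order Il1r2, Il1r1, Il1rl2, Il1rl1, Il18r1 and Il18rap. In MEFs the mean log2 values of these were 1.90, 10.35, 7.51, 13.76, 1.43 and 6.94. Il18r1, which encodes a chain of the IL-18 receptor, is separated from the end of Il1rl1 by 136 bases and was above 3 reads in 1 of 6 MEFs. The prostate samples had a log2 value of 7.82 ± 0.24 (SD, n = 6) and the grafts one of 8.69 ± 1.98 (SD, n = 5), and Il18r1 was called higher in prostate than in MEFs by 6.39 (limma adjusted p = 5.23e-08).

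Il1r2, the decoy receptor for IL-1, was above 3 reads in 2 of 6 MEFs and was called higher in prostate by 5.65 (limma adjusted p = 4.25e-09). Il18rap, the second IL-18 receptor chain, was called lower in prostate than in MEFs, with a difference of -3.20 (limma adjusted p = 6.79e-08), and Il1rl2, the receptor for IL-36, differed by -0.06 (limma adjusted p = 0.791) or, without FS015 and FS020, by 0.16 (limma adjusted p = 0.457). The 5 neighbours of Il1rl1 thus included genes that were called higher, called lower and not called in prostate relative to MEFs. Between prostate and grafts, Il1r1 was the 1 neighbour called. Il1rl2, which differed there by 0.74 (limma adjusted p = 0.243), was also called without graft FS007, at 1.19 (limma adjusted p = 0.0288), and Il1r2 and Il1rl2 were called after quantile normalization, at 1.84 (limma adjusted p = 0.0203) and 1.85 (limma adjusted p = 0.0429).

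**Figure D4:**
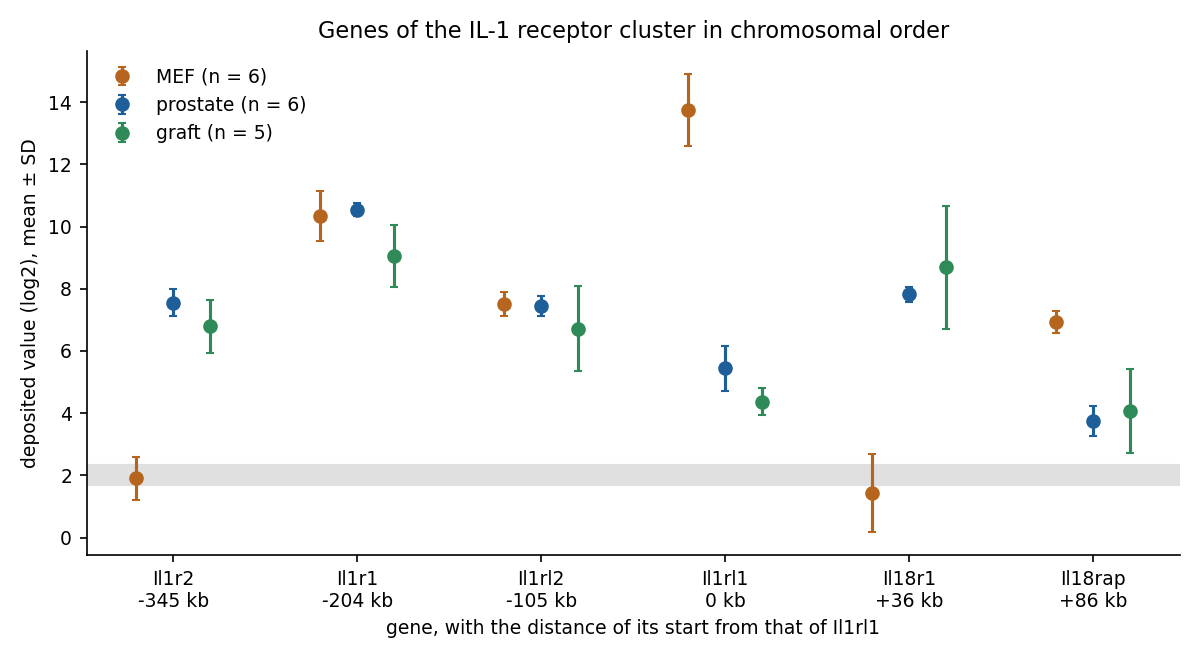
Mean deposited log2 value ± SD of the 6 genes of the IL-1 receptor cluster in their order on chromosome 1, with the distance of each start from that of Il1rl1, in MEFs (n = 6), prostate (n = 6) and the grafts of the first table (n = 5). The grey band is the value of 3 reads. In MEFs Il1rl1 has a mean of 13.76, while its neighbour Il18r1 has 1.43.

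The genes whose pattern over the 17 samples of the first table was most like that of Il1rl1, by Pearson correlation of log2 values among 16101 genes, were 1110037F02Rik, Sept7, Rock2, Lmna and Arsj, with r of 0.99 for each. Rock2 encodes a kinase that acts on the actomyosin cytoskeleton, Lmna the nuclear lamins A and C, and Sept7 a septin. Their means were higher in MEFs than in both tissues, for example 13.36 against 11.44 and 11.04 for Rock2. Arsj, an arylsulfatase gene, had 8.93, 4.67 and 3.90 in MEFs, prostate and grafts. The samples share their group structure, which sets most of this likeness. The first 5 genes by Spearman correlation were Gnai3, Haus7, Fam26e, Reck and Thbd and shared 0 genes with the first 5 by Pearson. Il33 had a Pearson r of -0.93 and a Spearman rho of -0.56.

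The wider pathway was described by 64 other genes of the IL-1 family and its signalling, in 5 roles. Of the 50 tested in prostate against MEFs, 12 were called higher and 14 lower. Their median log2 difference was 0.18, beside 0.17 over all genes tested. Of 53 tested in grafts against MEFs, 15 were called higher and 10 lower, with medians of 0.31 and 0.26. Of 52 tested in prostate against grafts, 0 were called higher and 18 lower in prostate, with medians of -0.53 and -0.11. At an unadjusted limma p under 0.05 and without a minimum size, 8 of the 52 were higher and 20 lower in prostate, and after quantile normalization 4 were called higher and 13 lower. Called in either direction were 52%, 47.2% and 34.6% of the list, close to the 48.3%, 41.9% and 33.3% of all genes. By direction, 27.8% of all genes were called higher and 20.5% lower in prostate against MEFs, and 29.9% and 12.0% in grafts against MEFs. In prostate against grafts these shares were 10.3% and 23.0%.

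Among the family ligands, Il18, whose product is also cut by caspase-1, was higher in prostate than in MEFs by 1.24 (limma adjusted p = 0.000156) and lower in prostate than in grafts, with a difference of -2.50 (limma adjusted p = 0.000631). The first of these was 0.29 after quantile normalization (limma adjusted p = 0.327). Il1f9, which encodes IL-36γ of squamous epithelia, was at or under 3 reads in all MEFs and prostate samples and above it in 4 of 5 grafts, where its mean was at least 17.7-fold higher than in MEFs and at least 13.7-fold higher than in prostate. Il1f9 was not called against MEFs without FS015 to FS018 (limma adjusted p = 0.12).

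Among receptors and decoys, 4 of 6 tested were called higher and 1 lower in prostate than in MEFs, and the same counts held for grafts against MEFs. Over all genes, 27.8% were called higher and 20.5% lower in the first of these comparisons, and 29.9% and 12.0% in the second. Sigirr, an inhibitory receptor of the family, was higher in prostate than in MEFs by 7.68 (limma adjusted p = 4.01e-11) and higher in grafts than in MEFs by 6.99 (limma adjusted p = 1.51e-07). It was above 3 reads in 1 of 6 MEFs, so both sizes are imprecise. Of these 6, 0 were called between prostate and grafts by limma, 1 was higher and 0 lower at an unadjusted p under 0.05, and Il1r2 and Il1rl2 were after quantile normalization, as given above.

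Genes for cytokine processing included the inflammasome and the proteases that cut these cytokines. Of 7 tested, 3 were called higher and 0 lower in prostate against MEFs, beside 27.8% higher and 20.5% lower over all genes. In grafts against MEFs the counts were 5 and 0, beside 29.9% and 12.0%, and in prostate against grafts 0 and 4, beside 10.3% and 23.0%. At an unadjusted limma p under 0.05, 0 of the 7 were lower in the first 2 comparisons and 1 was higher in the last. Pycard, the adaptor ASC of the inflammasome, was higher in prostate than in MEFs by 4.30 (limma adjusted p = 3.33e-05) and higher in grafts than in MEFs by 4.25 (limma adjusted p = 0.00352), or by 4.23 without FS015 to FS018 (limma adjusted p = 0.0673). Aim2, a sensor of cytosolic DNA, was higher in prostate than in MEFs by 1.93 (limma adjusted p = 0.0417), but this call was fragile. The difference was 1.87 without FS015 to FS018 (limma adjusted p = 0.129), 0.98 after quantile normalization (limma adjusted p = 0.244) and unchanged in size with no filter on low values (limma adjusted p = 0.0503), while without FS015 and FS020 it was 3.20 (limma adjusted p = 5.06e-05). Casp1, the protease that cuts IL-1β, was lower in prostate than in grafts, with a difference of -3.39 (limma adjusted p = 0.000818), and higher in grafts than in MEFs by 5.85 (limma adjusted p = 0.00205). Nlrp3, an inflammasome sensor, was lower in prostate than in grafts, with a difference of -2.05 (limma adjusted p = 0.00617), or -0.55 after quantile normalization (limma adjusted p = 0.435). Casp1 was above 3 reads in 2 of 6 MEFs, FS015 and FS020, those with the leukocyte and macrophage markers. Those markers were also higher in every graft than in every prostate sample, and their part in these differences was not tested.

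Of the 19 signalling genes downstream of the receptors, all tested, 3 were called higher and 1 lower in prostate against MEFs, 1 and 0 in grafts against MEFs, and 0 and 1 in prostate against grafts. Over all genes, 48.3%, 41.9% and 33.3% were called in these comparisons. Differences under 1 were more common, since at an unadjusted limma p under 0.05 the counts were 11 and 3, 7 and 3, and 6 and 1. Tab3, a partner of the kinase TAK1, was higher in prostate than in MEFs by 1.36 (limma adjusted p = 3.57e-09). Irak2, a kinase of the receptor complex, was lower in prostate than in MEFs, with a difference of -1.17 (limma adjusted p = 1.57e-05; -0.95 and under the minimum size without FS015 and FS020), and lower than in grafts, with a difference of -1.32 (limma adjusted p = 4.12e-05). Nfkbia, the inhibitor of NF-κB that NF-κB itself induces, was higher in grafts than in MEFs by 1.35 (limma adjusted p = 0.000102).

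The last role held genes that IL-1 can induce, as other stimuli can too. Of 17 tested, 1 was called higher and 12 lower in prostate against MEFs, where 20.5% of all genes were called lower. Of 19 tested, 3 were called higher and 9 lower in grafts against MEFs, where 12.0% of all genes were called lower. Of 18 tested, 0 were called higher and 11 lower in prostate against grafts, where 23.0% of all genes were called lower. At an unadjusted limma p under 0.05 these counts were 0 and 13, and the group as a whole was not tested. Ptgs2, which encodes the cyclooxygenase COX-2, had log2 values of 13.00 ± 0.50 (SD, n = 6) in MEFs and 5.66 ± 0.36 (SD, n = 6) in prostate, with the grafts between them at 8.28 ± 0.78 (SD, n = 5). Ptgs2 was called lower in prostate than in MEFs, with a difference of -7.34 (limma adjusted p = 2.54e-11). Cxcl5, a neutrophil attractant, was lower in prostate than in MEFs, with a difference of -8.22 (limma adjusted p = 1.04e-05), and lower than in grafts, with a difference of -5.07 (limma adjusted p = 0.00206). The acute-phase genes Lcn2 and Saa3 went the other way and were higher in grafts than in MEFs by 8.23 (limma adjusted p = 0.000154) and 6.09 (limma adjusted p = 3.00e-06). The MEFs had the highest Ptgs2, and Il1a and Il1b were at or under 3 reads in all 6. What induces Ptgs2 in them was not tested.

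**Figure D5:**
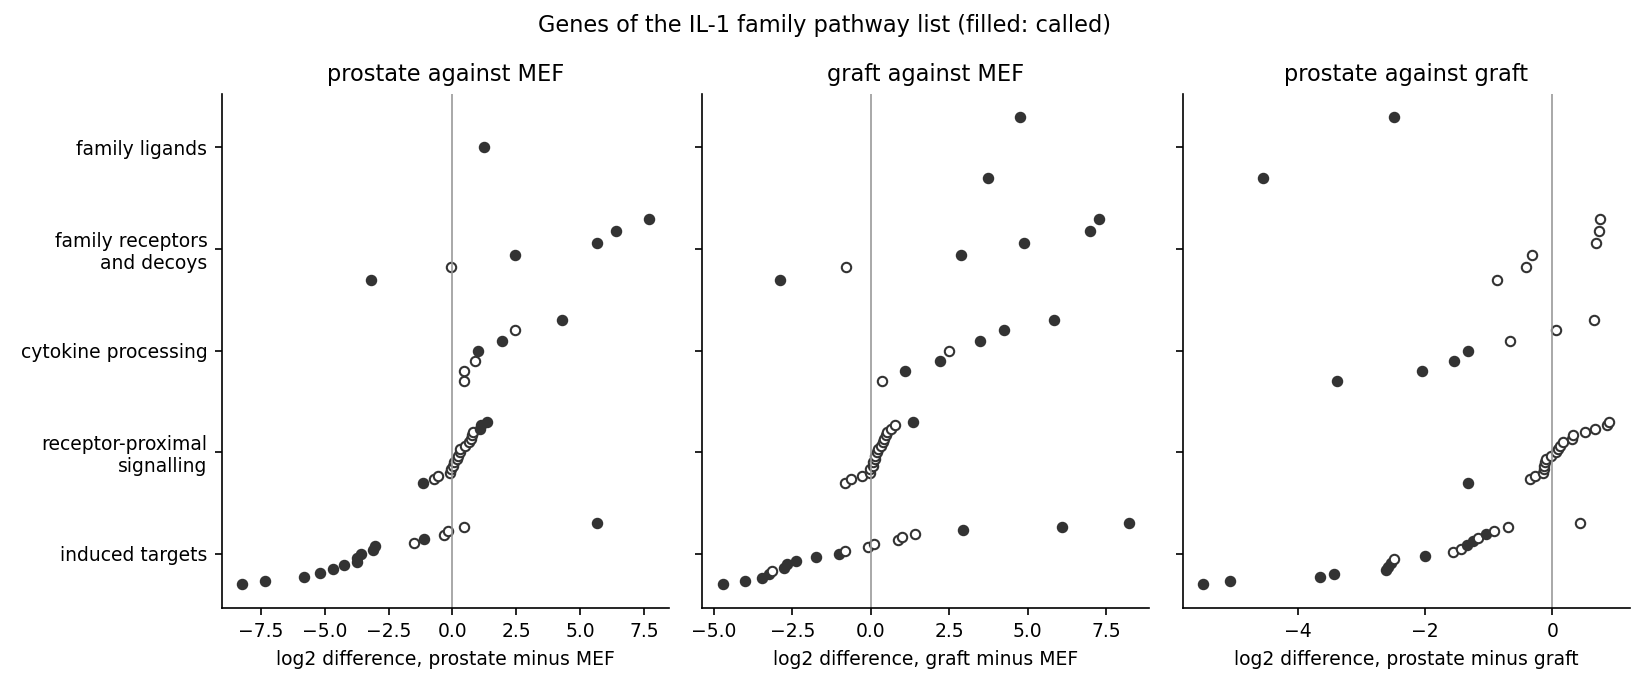
Log2 differences of the tested genes of the IL-1 family pathway list by role (rows), for prostate minus MEF, graft minus MEF and prostate minus graft. Each point is a gene, and filled points were called. In the panel of prostate against graft all 18 filled points are to the left of 0.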

How the data were processed

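Reads of single-end RNA-seq libraries were counted per gene and normalized with DESeq by the authors, and the tables they deposited, 1 of 17 samples and 1 of 2, hold log2 values. The submitters' processing notes name bcl2fastq 1.8.4, TopHat, Cufflinks, DESeq and the mm9 assembly, without their roles. The transformation to the log2 scale is not given in the sources used here. From 11.5 to 15.0, 100% of values matched whole reads (within 0.05) once a shared constant of 1.611 was removed and each sample's own scale applied, which gave the reads on genes, normalized reads and the value of 3 reads. Lower values carried added scatter, and their reads rest on an assumed form of the transformation.

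Groups of the first table were compared on the deposited log2 values with limma 3.58.1 (lmFit and eBayes with trend; R 4.3.3), for genes whose linear mean over the samples compared reached 10. A gene was called at a Benjamini-Hochberg adjusted p under 0.05 over all genes tested where the log2 fold change was also 1 or more in size. The number of called genes was 7026 for prostate against MEFs, 6757 for grafts against MEFs and 5440 for prostate against grafts. The first 2 comparisons share the MEFs, and the last shares its samples with both. Members under the filter were tested by an exact two-sided permutation over samples. On simulated data, changes of 2 and 4 on the log2 scale were recovered for 85 and 91 of 100 genes each in prostate against MEFs over 14141 genes. In grafts against MEFs these were 68 and 80 over 15363 genes, and in prostate against grafts 70 and 87 over 15800.

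The members and gene lists were chosen with earlier results of these data known. Named genes are the 7 members, the 2 called genes with the largest absolute log2 fold change per role and comparison, the 5 genes most like Il1rl1 by Pearson correlation, and the genes of the IL-1 receptor and ligand clusters. Lox is named only as the next fall, and some items are not reported here. Of the pathway list, 64 genes were in the tables. Positions, exon lengths and transcripts are from GENCODE M1 on mm9. Alternatives changed the filter, pseudocount, scaling, samples in the fit, minimum fold change, left out each graft of the first table, and left out MEFs FS015 to FS018. Averaging the MEFs in pairs, and leaving out FS015 and FS020, were added after the data were seen. Other steps ran in Python 3.11.15 with pandas 2.3.3, numpy 2.4.6 and scipy 1.17.1, and figures were drawn with matplotlib 3.10.9.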

Additional observations from a re-analysis of the deposited data

Results flagged for a closer look

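In 21 sets of samples (each of the 7 genes in each of the 3 groups of the first table), 1 value lay far from the rest of its group by Dixon's criterion, which chance flags in about 1 of 20 sets (1.05 expected here). It was Il1a in prostate sample FS014, at a log2 value of 3.75, beside 4.13 to 4.30 in the other 5 prostate samples. This corresponds to about 11 reads.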

How the results depend on the processing

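Of 116 repeats of member values that had a test, 111 kept their direction and side of the threshold, 3 gained a call and 2 lost it, and 0 reversed. Il1a and Il1b lost significance against prostate without MEFs FS015 to FS018 (exact permutation p = 0.071 for both, the smallest that 6 against 2 samples allow). Il1a was called in prostate against grafts without graft FS008, at -1.87, and Il1rap under quantile normalization, at 1.01, and with no minimum fold change, at 0.67. Among untested values, quantile normalization moved Il1rl1 to -10.37, Il1a to 3.70 and Il1b to 5.94 for grafts against MEFs and Il1rl1 to 2.40 for prostate against grafts, and a pseudocount of 1 moved Il1b to 6.15.

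With no minimum fold change, 11772, 10573 and 9093 genes passed in prostate against MEFs, grafts against MEFs and prostate against grafts, in place of 7026, 6757 and 5440. With the MEFs averaged in 3 pairs, 7029 genes were called in prostate against MEFs and 5778 in grafts against MEFs. Leaving out each graft in turn gave 6370 to 6858 called genes against MEFs and 5051 to 5843 in prostate against grafts, with 23 to 28 and 16 to 19 genes of the pathway list. Quantile normalization shifted the median difference of all genes from 0.26 to -0.14 for grafts against MEFs and from -0.11 to 0.12 for prostate against grafts, and changed the higher and lower calls from 4815 and 1942 to 3025 and 3641 and from 1683 and 3757 to 3243 and 2671. The cause was not tested. For other named genes, 2 of 344 repeats reversed, neither of them called, namely Il1rl2 in prostate against MEFs without FS015 and FS020, at 0.16, and Il18rap in prostate against grafts under quantile normalization, at 0.98. The first 5 genes by Spearman correlation with Il1rl1 shared 0 with those by Pearson.

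No paired analysis was possible because the replicate numbers were given in accession order and the labels pair no samples. Depth limits Il1a and Il1b in MEFs, where all values are at or under 3 reads, and Il1rn in prostate, where 3 of 6 are.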
